A study of Homo sapiens with 12 samples.

Results

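Long noncoding RNA genes are transcribed into long RNAs that are not translated into protein. The rule read the gene symbols of each deposited table and took rows whose symbol began with LINC or SNHG, carried -AS with a digit, ended in -IT1 or -OT1, or was MALAT1 or NEAT1. It found 17 rows among 2005 rows in all, with 2 of 142 rows in the table for the wild-type (WT) clone and 15 of 1863 rows in the table for the G398S clone. The 17 rows hold 16 long noncoding symbols, because MALAT1 was in both tables. Measured values had no part in the rule, but the tables hold only rows that the authors marked as changed, so every member is a changed row by construction.

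The cells were Huh7, a human hepatoma line, carrying a construct from which doxycycline induces A1CF, an RNA-binding protein known as the cofactor of apolipoprotein B mRNA editing. The 4 groups were the clone with WT A1CF without doxycycline, the same clone with doxycycline, the clone with G398S A1CF without doxycycline and that clone with doxycycline, each with 3 libraries of total RNA depleted of ribosomal and globin RNA. Each construct was represented by 1 clone in the values used here, and no group had doxycycline without a construct, so induction of A1CF and doxycycline itself cannot be told apart. Levels are FPKM, fragments scaled by transcript length and sequencing depth, and each is the authors' pooled value of 3 libraries. Library values and depths were not in these values and are unknown, so a level carries no replicate spread, and separate cultures are not stated in the labels, so the authors' q may reflect technical spread. The only measure of error was the authors' own, and the log2 fold change divided by their test statistic was taken as its standard error (SE). The authors' p and q do not follow from this SE. For MALAT1 in the WT clone the test statistic has a normal two-sided p of 0.0507, where the authors' Cuffdiff p was 0.0005.

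A1CF was higher with doxycycline in both clones, at 19.5 without and 33.2 FPKM with doxycycline in the WT clone and at 26.3 and 80.9 FPKM in the G398S clone. Of 14 hepatocyte markers 7 were in the G398S table, at 3.07 to 753 FPKM. Their summed level was 1757 FPKM without and 1300 FPKM with doxycycline. Of the same 14 markers 0 were in the WT table, where they were not analysed here. Of 8 markers of blood, vessel and stromal cells the G398S table listed HBB, HBA2 and LYZ, whose summed level was 185 FPKM without and 4353 FPKM with doxycycline. HBB and HBA2 are globin genes, whose RNA was depleted from these libraries. The WT table listed HBA2 and LYZ, with sums of 85.0 and 49.1 FPKM, and no marker of either set was listed at 0. The part of these markers in the results on noncoding RNAs was not tested.

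Long noncoding RNAs act in several known ways. Some stay in the nucleus, as MALAT1 does in the nuclear speckles that store splicing factors. Some work in the cytoplasm, as NORAD (the RefSeq name of LINC00657) does by binding many copies of the Pumilio repressor proteins. Others are transcribed next to a coding gene and can act on it or only share its open chromatin, and SNHG genes carry small nucleolar RNAs in their introns while the spliced host RNA is short-lived.

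The first set of sequences shows stretches of the member RNAs around TAATTA or TAATTG, the DNA forms of an AU-rich hexamer that A1CF is known to prefer in vitro, because A1CF is the protein that was induced. Stretches are from the longest GENCODE 29 transcript, 5′ to 3′, with T for U and the hexamer in capitals, and these positions count from 1 at the start of the transcript.
MALAT1, 1831 to 1870: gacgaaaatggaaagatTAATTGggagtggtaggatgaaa
MALAT1, 2531 to 2570: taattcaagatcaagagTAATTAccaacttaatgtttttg
MALAT1, 6155 to 6194: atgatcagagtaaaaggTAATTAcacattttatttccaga
LINC01268, 526 to 565: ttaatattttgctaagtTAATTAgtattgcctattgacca
LINC01268, 1842 to 1881: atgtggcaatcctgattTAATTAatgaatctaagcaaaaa
LINC00657, 1458 to 1497: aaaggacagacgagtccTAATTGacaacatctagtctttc
SNHG15, 1828 to 1867: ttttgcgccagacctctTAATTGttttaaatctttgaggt
In the G398S table the hexamer was in all 5 single-symbol members that rose and have a matching transcript, with 15 sites in 22847 bases, or 0.657 per kilobase. It was in 2 of the 7 such members that fell, SNHG15 with 3 sites and LINC01515 with 1, for 4 sites in 14840 bases or 0.270 per kilobase. MALAT1 had 6 sites, LINC01268 had 5, LINC00657 had 2, and LINC01127 and LINC00574 had 1 each. The transcripts that rose were also longer, with a median of 3727 bases against 1518, and richer in A and T, with a median of 58.4% against 49.4%. Of 5044 GENCODE long noncoding RNAs in the same range of lengths, 1218 to 8708 bases, 60.8% held the hexamer, at 0.538 per kilobase. This split was seen after the directions were known, the search used 1 strand of 1 transcript per gene, and a match does not show binding.

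The second set shows Pumilio sites in LINC00657, because binding of Pumilio is what NORAD is known for. Capitals mark TGTANATA, where N is any base, on the RNA strand.
LINC00657, 744 to 785: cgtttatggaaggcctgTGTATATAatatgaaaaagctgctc
LINC00657, 1224 to 1265: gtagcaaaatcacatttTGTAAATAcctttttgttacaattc
LINC00657, 2955 to 2996: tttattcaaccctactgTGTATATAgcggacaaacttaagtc
LINC00657, 4582 to 4623: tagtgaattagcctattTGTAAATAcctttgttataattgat
The transcript held 15 such sites in 5339 bases, or 2.81 per kilobase, and 3 of the 5044 long noncoding RNAs of the range above, LINC00657 included, held 15 or more. LINC01127 held 1 site, and the other members with a transcript held 0, where 19.8% of RNAs in that range held any.

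The third set shows start regions, because MALAT1 is the RNA found in both tables and RNASEH1-AS1 starts next to the coding gene RNASEH1. Each is 250 bases before to 50 after a RefSeq start on GRCh38.p14, and capitals mark GGGCGG, the core of a GC box, on either strand (CCGCCC where it lies on the other strand).
MALAT1, chr11:65497488-65497787, plus strand: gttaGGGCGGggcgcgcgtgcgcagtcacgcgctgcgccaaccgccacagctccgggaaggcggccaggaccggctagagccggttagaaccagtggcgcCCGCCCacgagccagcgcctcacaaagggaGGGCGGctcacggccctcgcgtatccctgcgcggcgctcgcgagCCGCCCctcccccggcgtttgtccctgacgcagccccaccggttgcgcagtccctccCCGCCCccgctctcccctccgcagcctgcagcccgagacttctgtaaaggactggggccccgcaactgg
RNASEH1-AS1, chr2:3558136-3558435, plus strand: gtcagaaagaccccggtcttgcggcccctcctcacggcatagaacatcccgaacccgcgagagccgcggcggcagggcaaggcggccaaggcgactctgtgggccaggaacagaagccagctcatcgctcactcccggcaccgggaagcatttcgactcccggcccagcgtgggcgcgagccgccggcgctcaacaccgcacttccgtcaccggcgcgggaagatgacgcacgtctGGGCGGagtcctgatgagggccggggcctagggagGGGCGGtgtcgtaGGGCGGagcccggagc
The MALAT1 window was 73.7% G and C and held 5 matches, and the RNASEH1-AS1 window was 70.3% G and C and held 3. These were the members with the most matches, and the window of LINC00657 held 0. GGGCGG was in 44.9% of all 34796 RefSeq start windows. A second MALAT1 start, at chr11:65498795-65499094, held no such match but held TATAAA, the TATA box core, which was in 11.6% of windows on either strand. RefSeq windows were found for 10 of the 16 symbols, 13 windows in all, with a median of 58.3% G and C against 58.7% over all windows.

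Doxycycline was followed by higher MALAT1 in the WT clone, and by little else among long noncoding RNAs in the rows used here. MALAT1 is among the most abundant nuclear noncoding RNAs and is transcribed as a single exon. In the WT clone it (chromosome 11, 65265215 to 65274179, hg19) was at 52.3 FPKM without and 73.5 FPKM with doxycycline, a difference of 21.2 FPKM. In the authors' deposited table the log2 fold change, the log2 ratio of the level with doxycycline to that without, was 0.49 (SE 0.25, q = 0.0452 from Cuffdiff, adjusted for the false discovery rate), and no row of that table had a smaller absolute log2 fold change.

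The other WT row was a merged locus, PCBP2 with PCBP2-OT1 (chromosome 12, 53845886 to 53893444). PCBP2 encodes a poly(C)-binding protein that stabilises and regulates RNAs, and PCBP2-OT1 lies inside it. The row was at 44.6 FPKM without and 66.5 FPKM with doxycycline, with a log2 ratio of 0.58 in the authors' deposited table (SE 0.28, q = 0.0170). It spans 47559 bases, of which the annotated PCBP2-OT1 takes 590, so the value cannot be read as that of the noncoding RNA.

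Both WT rows rose, where 39.4% of the listed WT rows did. Their median log2 fold change was 0.54 against -0.67 over all listed rows. A q under 0.05 was reached by 1.14% of the 15109 genes tested in the WT clone, a number recovered from the deposited p and q values. Neither row had a log2 fold change of 1 or more in either direction, a size that 35.9% of the listed rows had. In 1 of the 2, PCBP2 with PCBP2-OT1, the test statistic reached the size that has a normal two-sided p of 0.05, as it did for 97.2% of listed rows. No coding gene in the WT table lay within 1000 kb of either row.

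In the G398S clone 7 long noncoding rows rose and 8 fell. The rises were in nuclear MALAT1, in the Pumilio-binding LINC00657, in low-level RNAs next to IL1R2, MARCKS and SYNE3, in LINC00574 and in a merged locus with MCL1. The falls included the small nucleolar RNA host SNHG15, LINC01419, LINC00673 near SOX9 and LINC01488 near CCND1. Of the 15 rows 46.7% rose, against 46.3% of all listed rows, and a q under 0.05 was reached by 12.4% of 17072 genes tested. Their median log2 fold change was -0.43 against -0.32 over all listed rows, and the median absolute value was 0.65 against 0.49.

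Levels without doxycycline ranged from 0.133 FPKM for LINC01127 to 90.5 FPKM for the merged locus with MCL1, with a median of 5.92 FPKM against 9.25 FPKM over all listed rows. In 7 of the 15 rows both values were under 5 FPKM, as they were in 597 of all 1863 listed rows. A log2 fold change of 1 or more in either direction was seen in 2 of the 15 rows, LINC01127 and LINC01488, or 13.3%, where 12.6% of listed rows had one. The test statistic reached the size with a normal two-sided p of 0.05 in 9 of the 15, where 60.0% of listed rows did. With 1 FPKM added to both values 0 of the 15 rows had a log2 fold change of 1 or more in either direction. Rows with any symbol of noncoding RefSeq biotype, taken in place of the naming rule, had a log2 fold change of that size in 8 of 31 rows, or 25.8%. This was without 1 FPKM added, as it was for those outside the naming rule, with 6 of 17, or 35.3%. Only 22 of the 31 and 9 of the 17 held a single symbol, and the merged rows cannot be read as the noncoding RNA.

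**Figure D1:**
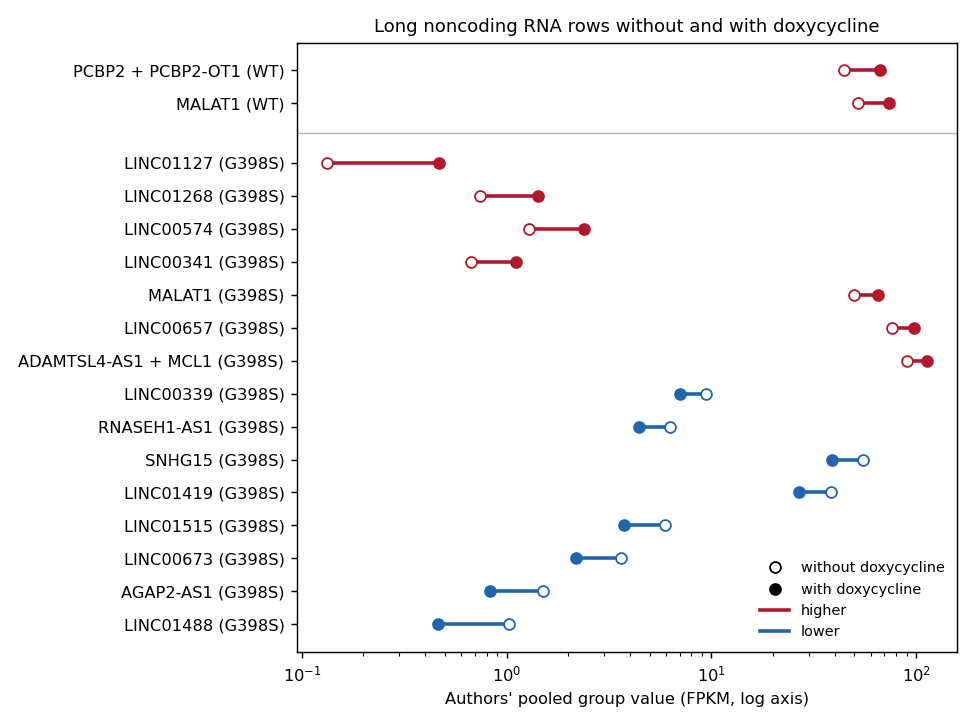
Level of each long noncoding RNA row without (open points) and with doxycycline (filled points), as the authors' pooled FPKM of 3 libraries on a log axis, with red for rows that rose and blue for rows that fell. The G398S rows run from LINC01127, at 0.133 and 0.468 FPKM, to the merged row with MCL1, at 90.5 and 113.6 FPKM.

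The 2 abundant single-exon RNAs rose by similar amounts. MALAT1 (chromosome 11, 65265196 to 65273983) was at 50.01 FPKM without and 65.4 FPKM with doxycycline in the G398S clone. The authors' deposited table gave a log2 fold change of 0.39 (SE 0.19, q = 0.00544). Its level without doxycycline was 50.01 FPKM here and 52.3 FPKM in the WT clone, in tables normalised separately, and the difference between the clones in its change was not tested. LINC00657 (NORAD, chromosome 20, 34633540 to 34638882) was at 76.7 FPKM without and 97.7 FPKM with doxycycline, with a log2 ratio of 0.35 in the authors' deposited table (SE 0.19, q = 0.0125). Of 10 single-symbol members whose longest GENCODE transcript has several exons, 3 rose, where 46.3% of listed rows did.

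**Figure D2:**
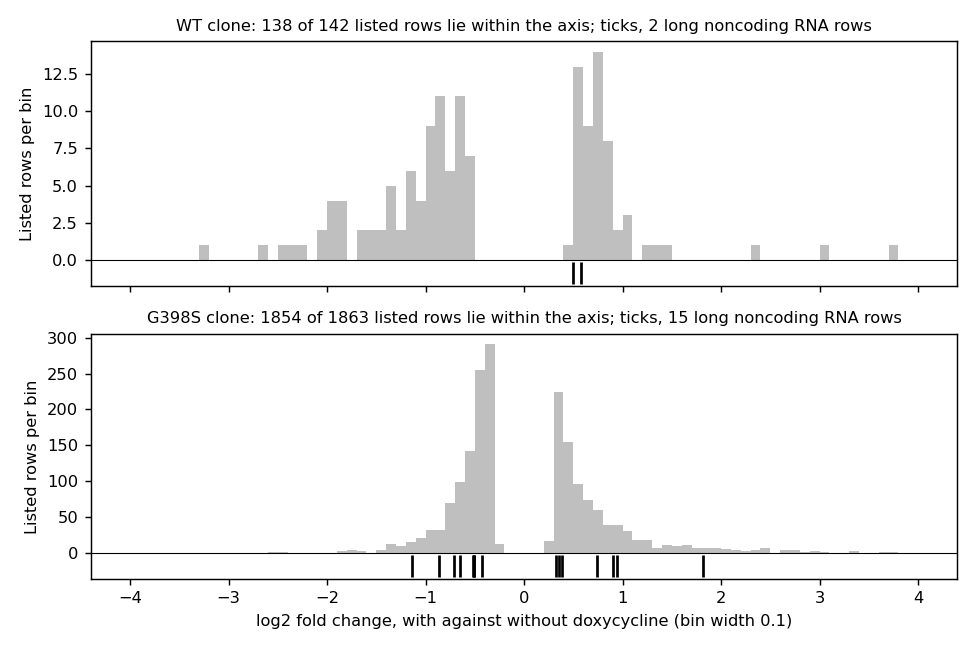
Number of listed rows in each bin of log2 fold change (width 0.1, grey bars) in the WT table above and the G398S table below, with a tick for each long noncoding RNA row. The empty centre is where the tables list no rows; MALAT1 in the WT clone, at 0.49, stands at its edge, and the G398S ticks lie on both sides from -1.14 to 1.82.

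The other LINC RNAs that rose, besides the abundant LINC00657, were low in level. LINC01127 (chromosome 2, 102578528 to 102603614), just before the interleukin-1 receptor genes, was at 0.133 FPKM without and 0.468 FPKM with doxycycline, a ratio of 3.52. Its log2 fold change in the authors' deposited table was 1.82 (SE 0.82, q = 0.00667), the largest of the members and also the one with the largest error. With 1 FPKM added to both values it was 0.37, since the difference was 0.335 FPKM.

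LINC01268, named MROCKI in RefSeq, lies beside MARCKS (chromosome 6, 114188987 to 114194980). It was at 0.744 FPKM without and 1.43 FPKM with doxycycline, with a log2 ratio of 0.94 in the authors' deposited table (SE 0.38, q = 0.00104). LINC00574 (chromosome 6, 170188886 to 170212723) was at 1.28 FPKM without and 2.40 FPKM with doxycycline, with a log2 ratio of 0.90 in the authors' deposited table (SE 0.50, q = 0.0303). With 1 FPKM added to both values these were 0.48 and 0.57. The LINC00574 row spans 23838 bases where GENCODE annotates 12553, so its value may include other transcripts of that region.

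LINC00341 (chromosome 14, 95873604 to 95876427) was at 0.669 FPKM without and 1.12 FPKM with doxycycline. Its log2 fold change in the authors' deposited table was 0.74 (SE 0.35, q = 0.0106), or 0.34 with 1 FPKM added to both values. RefSeq now gives LINC00341 as a synonym of the coding gene SYNE3, so its standing as a separate noncoding gene is uncertain. The merged row of ADAMTSL4-AS1 and MCL1 (chromosome 1, 150521845 to 150552214) was at 90.5 FPKM without and 113.6 FPKM with doxycycline, with a log2 ratio of 0.33 in the authors' deposited table (SE 0.19, q = 0.0231). MCL1 encodes an anti-apoptotic protein of the BCL2 family, and the row cannot be divided between the genes.

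SNHG15 was the most abundant of the RNAs that fell. Its row (chromosome 7, 45022627 to 45026259) was at 55.1 FPKM without and 38.8 FPKM with doxycycline, a difference of -16.3 FPKM. The authors' deposited table gave a log2 fold change of -0.51 (SE 0.20, q = 0.00104). No other SNHG gene was in the rows analysed here. LINC01419, on chromosome 8, was at 38.6 FPKM without and 27.0 FPKM with doxycycline, with a log2 ratio of -0.52 in the authors' deposited table (SE 0.23, q = 0.00104). Its row spans 82401 bases where GENCODE annotates 5143, so the value may include other transcripts of that region.

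LINC00339 (chromosome 1, 22350487 to 22357724), beside CDC42, was at 9.45 FPKM without and 7.02 FPKM with doxycycline, a log2 ratio of -0.43 in the authors' deposited table (SE 0.25, q = 0.0262). RNASEH1-AS1 (chromosome 2, 3605976 to 3609340) was at 6.29 FPKM without and 4.44 FPKM with doxycycline, a log2 ratio of -0.50 in the authors' deposited table (SE 0.27, q = 0.0139). It is transcribed away from RNASEH1, which encodes the nuclease that removes RNA from RNA-DNA hybrids and which was not analysed here.

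LINC01515 (chromosome 10, 67330285 to 67559022) was at 5.92 FPKM without and 3.76 FPKM with doxycycline, a log2 ratio of -0.65 in the authors' deposited table (SE 0.34, q = 0.00725). LINC00673 (chromosome 17, 70399140 to 70588943), in the gene desert after SOX9, was at 3.61 FPKM without and 2.196 FPKM with doxycycline, a log2 ratio of -0.72 in the authors' deposited table (SE 0.27, q = 0.00104).

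The lowest RNAs that fell had the largest ratios. AGAP2-AS1 (chromosome 12, 58118076 to 58135944) was at 1.51 FPKM without and 0.833 FPKM with doxycycline, with a log2 ratio of -0.86 in the authors' deposited table (SE 0.44, q = 0.0211). Its row spans 17869 bases where GENCODE annotates 2086 and where RefSeq gives the overlapping coding gene AGAP2 18401, so reads of AGAP2 may be part of the value, and whether strand was used in counting is not given in the sources used here. LINC01488 (chromosome 11, 69300329 to 69311926) was at 1.02 FPKM without and 0.464 FPKM with doxycycline, with a log2 ratio of -1.14 in the authors' deposited table (SE 0.38, q = 0.00104). With 1 FPKM added to both values these were -0.46 and -0.47.

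The rows next to the noncoding RNAs were compared because many such RNAs share chromatin with a coding neighbour. Among the G398S rows 4 members had a listed coding row within 10 kb, and each had changed in the same direction as that row. The pair of LINC00341 and SYNE3 may be a single gene by RefSeq, and without it the count was 3 of 3. LINC01127 rose beside IL1R2, the decoy receptor for interleukin-1, LINC01268 rose beside MARCKS, a membrane-bound substrate of protein kinase C, LINC00341 rose beside SYNE3, a nuclear envelope protein, and SNHG15 fell beside MYO1G, a class I myosin. Among rows that were not members, 83.9% of 192 with such a neighbour also went its way, so shared direction at this distance was general in the table.

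IL1R2 had the largest change among these neighbours. It lay 4691 bases from LINC01127 and was at 0.211 FPKM without and 2.17 FPKM with doxycycline, with a log2 ratio of 3.37 in the authors' deposited table (q = 0.00104), or 1.39 with 1 FPKM added to both values. IL1R1, the signalling receptor, lay 83221 bases away and was at 1.12 FPKM without and 1.56 FPKM with doxycycline, a log2 ratio of 0.48 in the authors' deposited table (q = 0.0149), or 0.27 with 1 FPKM added to both values. The noncoding RNA and both receptor genes thus rose, and the RNA had the lowest level with doxycycline.

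MARCKS lay 2821 bases from LINC01268 and was at 108.8 FPKM without and 185.8 FPKM with doxycycline, a log2 ratio of 0.77 in the authors' deposited table (q = 0.00104). The RNA stood at 0.744 FPKM beside it. SYNE3 lay 4728 bases from LINC00341 and was at 2.11 FPKM without and 3.08 FPKM with doxycycline, a log2 ratio of 0.54 in the authors' deposited table (q = 0.00544).

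MYO1G lay 3922 bases from SNHG15 and was at 0.531 FPKM without and 0.150 FPKM with doxycycline, a log2 ratio of -1.82 in the authors' deposited table (q = 0.00104), or -0.41 with 1 FPKM added to both values. Here the noncoding RNA was the abundant member of the pair. The other 3 listed coding rows within 1000 kb of SNHG15 also fell, where 53.4% of all coding rows of the table fell. TBRG4, a mitochondrial RNA-processing protein, went from 40.0 to 30.8 FPKM, NUDCD3 from 25.8 to 20.9 FPKM, and DBNL from 62.4 to 49.9 FPKM.

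Within 100 kb 7 members had a listed coding neighbour and 6 of the nearest rows, or 85.7%, had changed in the same direction, where the share was 78.7% of 624 other rows. AGAP2-AS1 and METTL1, a tRNA methyltransferase 26325 bases away, both fell, METTL1 from 22.2 to 17.1 FPKM. The row with MCL1 and RPRD2, 72684 bases away, both rose, RPRD2 from 0.885 to 1.23 FPKM. The exception was MALAT1, whose nearest listed row, FAM89B with SSSCA1 at 62707 bases, went from 37.7 to 28.3 FPKM while MALAT1 rose.

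**Figure D3:**
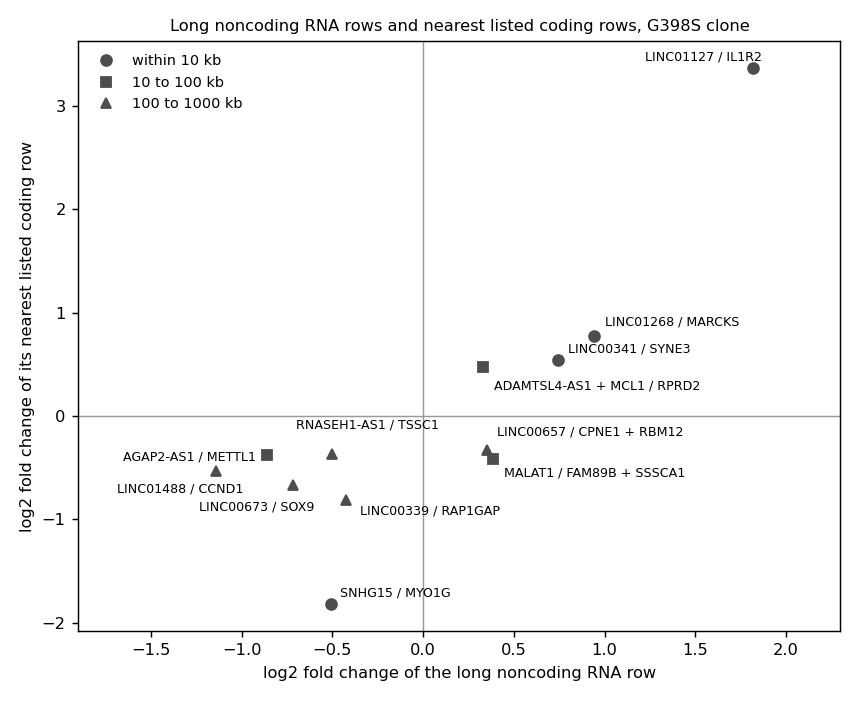
Log2 fold change of each long noncoding RNA row in the G398S table (horizontal axis) and of its nearest listed coding row within 1000 kb (vertical axis), with the marker shape giving the distance between them. MALAT1 and LINC00657 are the 2 of 12 in the quadrant of opposite directions, and LINC01127 with IL1R2 stands apart at 1.82 and 3.37.

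Within 1000 kb the nearest listed coding row went the same way for 10 of 12 members, or 83.3%, against 66.2% of 1499 other rows. At this distance the pairs that both fell included LINC01488 with CCND1, cyclin D1, 143946 bases away and at 74.7 FPKM without and 51.7 FPKM with doxycycline. LINC00673 fell with SOX9, a transcription factor gene 276579 bases away that was at 1.24 FPKM without and 0.782 FPKM with doxycycline. LINC00339 fell with RAP1GAP, which was at 1.92 and 1.09 FPKM, and RNASEH1-AS1 fell with TSSC1, which was at 30.0 and 23.2 FPKM. LINC00657 was the other exception, since CPNE1 with RBM12, 380661 bases away, fell from 131.5 to 104.4 FPKM. Listed rows beyond the nearest also went the other way for some members that fell. Near LINC01488, PPFIA1 rose from 3.91 to 5.84 FPKM. Near AGAP2-AS1, INHBE rose from 5.84 to 10.9 FPKM and the merged row of MYO1A and NEMP1 from 30.2 to 39.5 FPKM. LINC00574, LINC01419 and LINC01515 had no listed coding row within this distance.

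MALAT1 differed in direction from most of its listed surroundings. Of 9 listed coding rows within 1000 kb, 8 fell, where 53.4% of all coding rows of the table fell, among them SLC25A45 from 0.561 to 0.279 FPKM, POLA2, a subunit of DNA polymerase alpha, from 12.9 to 8.71 FPKM, and CCDC85B from 3.29 to 1.89 FPKM. AP5B1 alone rose with it, from 2.22 to 3.12 FPKM. No other member had more listed coding rows in its surroundings, and no test of this count was made. Listed rows near each other often shared direction in this table, so the 9 rows cannot be taken as independent.

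**Figure D4:**
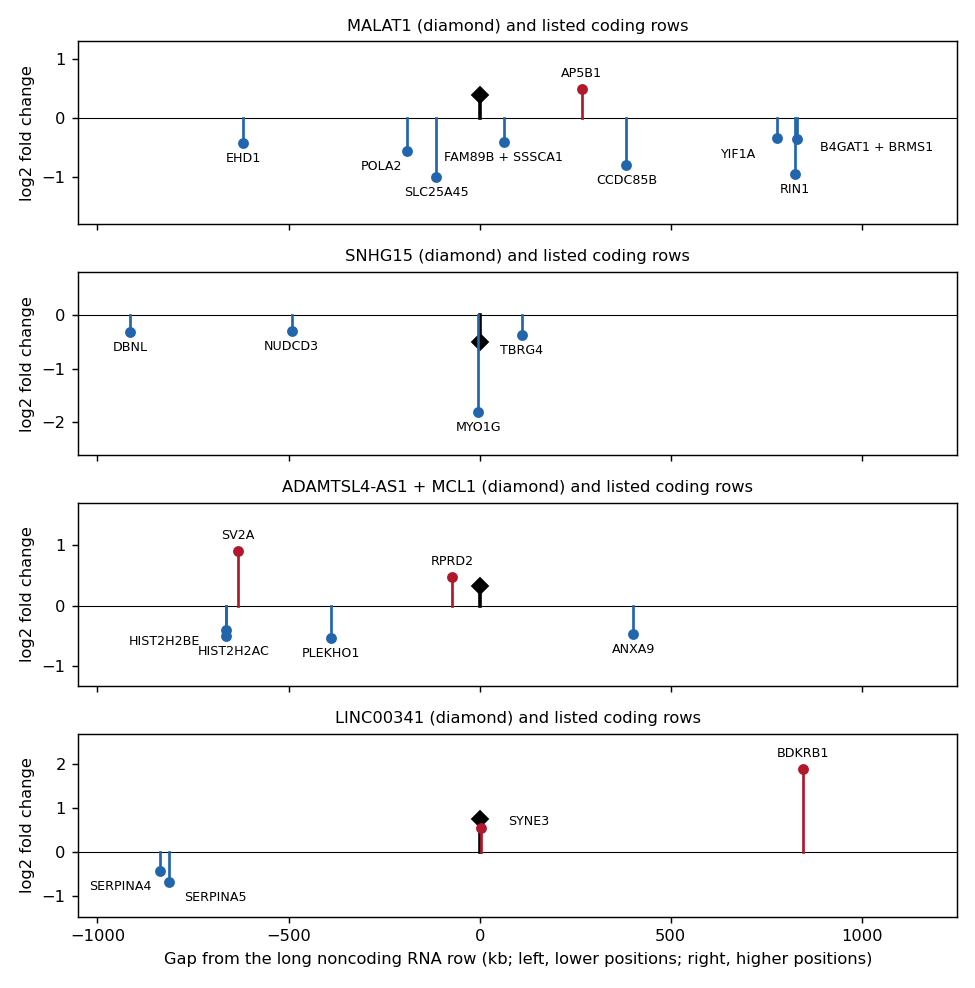
Log2 fold change in the G398S table of 4 long noncoding RNA rows (black diamond at 0) and of every listed coding row within 1000 kb, by the gap between the rows in kb; red rows rose and blue rows fell. Around MALAT1 8 of 9 coding rows lie below 0, around SNHG15 all 4 do, and around the other 2 rows both directions occur.

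By the order of coding genes in RefSeq, which also counts genes not in the tables, 7 of the 30 coding genes that flank or overlap the 14 members with a RefSeq noncoding entry were listed in the G398S table, or 23.3%. Of all 20056 RefSeq coding genes, whether expressed in these cells or not, 9.23% were listed by symbol. The flanks of other listed rows were not counted, and the difference was not tested. The 7 listed genes were MCL1, SOX9, IL1R2, MARCKS, SNX16, CCND1 and MYO1G. MCL1 is in the merged row itself, and SNX16 lies 1561572 bases from LINC01419 in RefSeq. AGAP2 and ADAMTSL4, which overlap AGAP2-AS1 and ADAMTSL4-AS1, were not among the listed rows, so these RNAs could not be set against their sense partners. RNASEH1-AS1, named RNASEH1-DT in RefSeq, lies 52 bases from RNASEH1 without overlapping it, and RNASEH1 was not listed either.

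Genes that work with these RNAs were followed in 5 lists. Of 51 host genes of small nucleolar RNAs and genes with a 5′ terminal oligopyrimidine tract, a motif of translation genes that most SNHG RNAs share, 6 (11.8%) were in the G398S table and 0 of these rose. Over all genes 12.4% of those tested had a q under 0.05 and 46.3% of listed rows rose, and these shares are set beside each list. The 12.4% includes 251 genes past that q that were not analysed here, and the lists may hold genes that were not tested. The listed shares are therefore only roughly comparable with it. RPS12, a ribosomal protein gene, was at 3939 FPKM without and 2996 FPKM with doxycycline, RPL13 at 119.9 and 93.2 FPKM, and RPLP0 at 1972 and 1554 FPKM. The separate rows of EEF1D, of RPL10 and of RPL37, the last merged with LOC100506548, fell as well. The median log2 fold change of the 6 rows was -0.35, beside -0.32 over all listed rows. In the WT table the list had 1 row, PABPC1 merged with MIR7705, which was at 42.4 FPKM without and 63.8 FPKM with doxycycline.

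Nuclear speckle and SR proteins, the partners of MALAT1, had 4 of 31 genes (12.9%) listed in the G398S table, beside 12.4% of tested genes. Of the 4 rows 3 rose, where 46.3% of listed rows did. PNN was at 21.05 FPKM without and 27.8 FPKM with doxycycline, SRRM2, a scaffold of the speckle, at 2.12 and 2.69 FPKM, and the splicing factor gene SRSF5 at 57.4 and 70.4 FPKM. LUC7L, a component linked to the U1 particle, fell from 9.60 to 6.50 FPKM. Paraspeckle proteins, which assemble on NEAT1, had 5 of 37 genes (13.5%) listed, of which 1 rose. Among them HNRNPH3 rose from 12.8 to 21.1 FPKM, and DAZAP1, CIRBP and the merged rows with PSPC1 and RBM12 fell, DAZAP1 from 49.4 to 35.5 FPKM. NEAT1 itself was not analysed here.

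Factors of nonsense-mediated decay and noncoding RNA turnover had 4 of 33 genes (12.1%) listed in the G398S table, beside 12.4% of tested genes. EXOSC4, EXOSC5 and EXOSC7, subunits of the RNA exosome, fell, from 33.8 to 22.2 FPKM, from 19.4 to 14.7 FPKM and from 45.8 to 36.6 FPKM. UPF2, a decay factor, rose from 8.42 to 10.8 FPKM. Neither this list, the speckle list nor the paraspeckle list had a row in the WT table.

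Noncoding RNA genes with names outside the rule had 7 of 63 genes (11.1%) listed in the G398S table, beside 12.4% of tested genes, and 0 in the WT table. Of the 7 rows 2 rose and 5 fell, where 46.3% of listed rows rose. HOTAIRM1 was at 1.65 FPKM without and 4.19 FPKM with doxycycline, a log2 ratio of 1.35 in the authors' deposited table (q = 0.00104). UCA1 was at 5.12 FPKM without and 2.24 FPKM with doxycycline, a log2 ratio of -1.19 in the authors' deposited table (q = 0.00104). TERC, the RNA template of telomerase, fell from 210.6 to 165.6 FPKM, SCARNA2, a guide RNA of Cajal bodies, from 948.8 to 761.0 FPKM, and DANCR from 309.1 to 248.6 FPKM. The merged row of MIR22HG rose and that of MIR600HG with STRBP fell.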

How the data were processed

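RNA from 12 Huh7 libraries was measured as stranded total RNA, per the labels. Per the submitters' processing notes the build was hg19 and the tools were STAR 2.5.0b, bcl2fastq 2.9.1, Cuffdiff and Cufflinks 2.2.1, with settings and use of strand not given in these sources. The authors deposited 1 table per clone with pooled FPKM per group, the log2 fold change, a test statistic (a score), p-values and q-values, per the file headers. The table without a mutant prefix was taken as WT from its deposited name. Depth and replicate values are unknown, so no test was added. FPKM precision therefore has no interval.

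Starts in the files count from 0, and 1 was added. Symbols in merged rows were split at commas. Distances are gaps between rows on hg19. The numbers of genes tested (15109 and 17072) were recovered from p and q, which imply 172 and 2114 genes past a q of 0.05; 142 and 1863 were analysed here. RefSeq (GRCh38.p14) and GENCODE 29 were used for names, spans and sequences, with no conversion of coordinates. All single-symbol members were named, with the nearest listed coding rows and up to 6 genes per list; neighbours beyond 100 kb were chosen after their values were seen. The members and lists were chosen with earlier results of these data known. Alternatives were single-symbol rows, at least 1 FPKM, q at most 0.01, a log2 fold change of 1 or more in either direction, 1 FPKM added, other windows, RefSeq biotype, the test statistic and LINC00341 left out. Python 3.11.15 with pandas 2.3.3 and numpy 2.4.6 was used, and the code was tested on simulated data.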

Additional observations from a re-analysis of the deposited data

How the results depend on the processing

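No paired analysis was possible because the files hold 1 pooled value per group, and for the same reason no replicate could be left out. The 2 WT rows, both higher, became 1 with single-symbol rows, 0 at a q of at most 0.01, 0 at a log2 fold change of 1 or more in either direction, and 1 by the test statistic. The 15 G398S rows, 7 of them higher, became 8 rows with 3 higher at a q of at most 0.01, 2 with 1 higher at a log2 fold change of 1 or more in either direction, and 9 with 4 higher by the test statistic. Taking RefSeq biotype in place of names, chosen after seeing the data as was the test statistic, gave 31 rows with 15 higher. Of these 31 rows 22 held a single symbol. With 1 FPKM added the 2 G398S rows with a log2 fold change of 1 or more in either direction became 0, since both were low; of the 17 rows 6 shrank by over 1.5 times and 11 did not, with none reversed. The share of nearest coding rows going the same way, 85.7% within 100 kb, was 100% of 4 rows within 10 kb, 83.3% within 1000 kb and 83.3% with single-symbol rows. It was also 83.3% without LINC00341, left out after seeing the data.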

Other observations

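The RefSeq biotype adds 17 rows of the G398S table to those found by name, of which 9 rose and 8 fell, and their median absolute log2 fold change was 0.72. Of the 17 rows 9 held a single symbol and the others were merged. Besides HOTAIRM1, UCA1 and DANCR, the single-symbol rows were OLMALINC, at 2.18 FPKM without and 3.65 FPKM with doxycycline, LVCAT5, at 10.8 and 17.8 FPKM, BRCAT54, at 0.365 and 0.807 FPKM, PCAT4, at 14.9 and 11.6 FPKM, and the unnamed loci LOC730101, at 6.65 and 11.9 FPKM, and LOC729683, at 0.829 and 0.402 FPKM. The WT table gained no row in this way.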
